A study of Mus musculus with 14 samples.

Results

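De novo lipogenesis genes and their regulators were followed in livers of male mice that lack miR-122, a microRNA made mainly by hepatocytes. The 10 genes were chosen by name: Acly, Acaca, Acacb, Fasn, Scd1, Elovl6, Me1, Srebf1, Mlxipl and Thrsp. All 10 were measured, among 12903 genes named in the authors' table of the 5-week arrays. Signals come from Affymetrix whole-transcript arrays of total liver RNA. At 5 weeks there were 2 knockout livers, labelled miR-122loxP/loxP Alb-Cre, and 2 control livers, labelled miR-122loxP/loxP. The titles of the control samples call them wild type. All 4 came from males of the C57BL/6J background and, by the genotype labels, carried floxed miR-122 alleles. The albumin promoter restricts Alb-Cre to hepatocytes and their precursors. If the genotype labels hold, liver cells outside that lineage would keep the floxed allele. The series' design text instead calls these mice germ-line knockouts. No named row measured miR-122, so its loss was not checked. The labels do not say that each liver RNA came from a separate mouse, so p-values measure the spread between these samples, which may be technical. The 10 livers of 8 weeks, 5 of each genotype, were not analysed here.

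De novo lipogenesis turns surplus carbohydrate into fatty acids in the cytosol. ATP citrate lyase makes acetyl-CoA from citrate, acetyl-CoA carboxylase makes malonyl-CoA, and fatty acid synthase joins these units into palmitate, using NADPH that malic enzyme and the pentose phosphate pathway supply. Elongation and desaturation follow. In liver, insulin acts on the pathway through SREBP-1c, a product of Srebf1, and glucose acts through ChREBP, the product of Mlxipl.

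In 5-week knockout livers, Acacb fell to 0.462 times its control level and Me1 rose 1.51-fold, and the other 8 members did not pass the test. The Me1 call was lost when both its probe sets were averaged, and both calls were lost when any 1 array was left out. The call needed a limma p under 0.05 after Benjamini-Hochberg adjustment over all 12903 genes. Over all genes, 10.7% were called higher and 4.11% lower in the knockout, 14.8% in all, and 1 member was called in each direction. The authors' deposited table, with its p-values adjusted in the same way, gave 9.64% higher and 3.7% lower, with Acacb and Me1 again the members called. A lower mean in the knockout was seen in 9 of 10 members, Me1 being the exception, against 48.6% of all genes. The median log2 difference, knockout minus control, was -0.28 over the members and 0.005 over all genes. That direction rested in part on control liver 2: without it, 5 of 10 members had a lower mean, and the members' median was -0.04. With the array of any other liver left out, 7 to 9 members were lower. In whole-liver RNA, fewer cells of a type and less RNA per cell cannot be told apart.

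**Figure D1:**
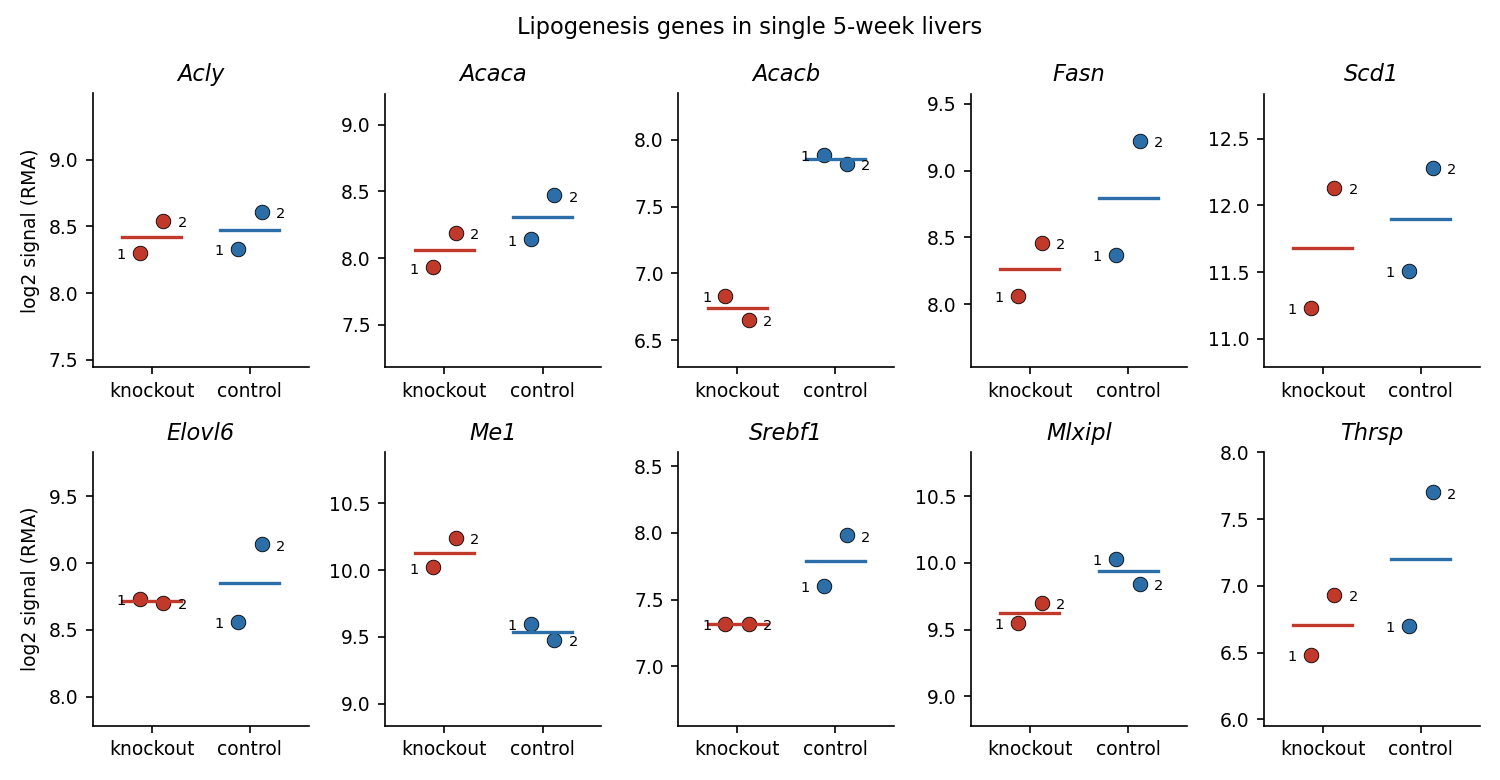
Signal of each gene on a log2 scale (RMA) in every 5-week liver, with knockout livers on the left (red) and control livers on the right (blue). Points are single arrays numbered as in the labels, lines are group means, and every panel spans the same range of log2 units. Acacb, Me1, Srebf1 and Mlxipl show no overlap between the genotypes, and the other 6 genes do.

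RefSeq promoter windows (GRCm38.p6), from 250 bases before to 50 after a start site, matched 9 of the 10 members by symbol, with 13 windows in all. A window of Acacb and of Me1 is shown because those genes passed the test, one of Srebf1 because it encodes a regulator of the pathway, and that of Fasn as its usual readout. Me1 has 2 windows and Srebf1 has 3, and the one printed for each was picked because it alone holds TCACCC, so that match is no finding. Capitals mark TCACCC, the core letters of a sterol response element, and CCAAT, the box bound by NF-Y, on either strand.
Acacb, chr5:114165268-114165567, plus strand: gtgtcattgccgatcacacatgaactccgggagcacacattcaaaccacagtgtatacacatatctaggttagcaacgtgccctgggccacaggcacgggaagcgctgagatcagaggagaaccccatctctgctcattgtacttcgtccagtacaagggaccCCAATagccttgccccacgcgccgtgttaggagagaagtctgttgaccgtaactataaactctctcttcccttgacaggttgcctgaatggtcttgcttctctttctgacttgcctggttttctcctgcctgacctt
Me1, chr9:86695865-86696164, minus strand: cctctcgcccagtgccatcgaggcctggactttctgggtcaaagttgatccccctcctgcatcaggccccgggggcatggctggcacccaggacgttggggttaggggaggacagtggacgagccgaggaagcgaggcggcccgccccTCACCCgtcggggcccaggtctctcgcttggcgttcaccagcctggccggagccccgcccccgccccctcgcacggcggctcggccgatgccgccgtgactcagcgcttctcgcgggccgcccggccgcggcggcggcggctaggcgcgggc
Srebf1, chr11:60210422-60210721, minus strand: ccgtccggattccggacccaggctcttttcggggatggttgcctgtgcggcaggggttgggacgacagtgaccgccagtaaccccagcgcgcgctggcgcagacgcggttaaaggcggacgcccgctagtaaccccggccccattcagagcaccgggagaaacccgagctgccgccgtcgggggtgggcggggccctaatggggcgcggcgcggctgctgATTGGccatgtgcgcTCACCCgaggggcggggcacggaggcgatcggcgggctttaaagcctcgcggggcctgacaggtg
Fasn, chr11:120824498-120824797, minus strand: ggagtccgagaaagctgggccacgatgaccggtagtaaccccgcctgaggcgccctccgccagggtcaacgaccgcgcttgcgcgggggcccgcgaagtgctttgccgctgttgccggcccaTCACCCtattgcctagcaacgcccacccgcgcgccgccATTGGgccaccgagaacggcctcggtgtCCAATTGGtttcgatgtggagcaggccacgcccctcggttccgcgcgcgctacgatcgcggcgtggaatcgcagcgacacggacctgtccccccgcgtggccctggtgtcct
The Acacb window held 1 CCAAT box and no TCACCC. The printed Me1 window held 1 TCACCC and no CCAAT box, and the printed Srebf1 window 1 of each. The other Me1 window held 1 CCAAT box and no TCACCC, and of the other Srebf1 windows, neither with TCACCC, 1 held a CCAAT box. The Fasn window held 1 TCACCC and 3 CCAAT boxes, of which a pair overlap. TCACCC was found in 3 of the 13 member windows and in 16.2% of all 32851 windows of the table. CCAAT was found in 8 of the 13 and in 37.4% of all. The full element TCACNCCAC, found in 1.24% of all windows, and the E-box CACGTG, found in 7.15%, each had 1 match, in different windows of Mlxipl. TCACNCCAC can overlap TCACCC, and both were searched on either strand. A match is a description of the letters and no sign of binding.

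Both genes of acetyl-CoA carboxylase were measured. Acacb encodes the isoform at the mitochondrial surface, whose malonyl-CoA restrains entry of fatty acids into mitochondria. Its log2 signals were 6.83 and 6.65 in knockout livers, against 7.89 and 7.82 in control livers. The genotypes lay well apart, while liver 2 minus liver 1 was -0.18 in the knockout and -0.07 in the control. The log2 difference was -1.12 ± 0.11 (limma SE, n = 2 each, adjusted p = 0.00421), with a 95% interval of -1.39 to -0.84. Without any 1 array it stayed between -1.21 and -1.03, but then no gene passed limma's adjusted threshold, while 2265 to 3494 genes had an unadjusted p under 0.05. Knockout signals of Acacb lay under 7.01, the 95th percentile of 42 olfactory receptor genes taken as a guide to background, so the size of the fall is uncertain. Only olfactory receptor genes that the authors reported were counted, each with a higher group mean of at least 4.94. Dimmer ones were left out, so this guide may lie high.

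Acaca encodes the cytosolic isoform that feeds fatty acid synthase. Its brighter probe set had log2 signals of 7.93 and 8.19 in knockout livers, against 8.14 and 8.47 in control livers, and the genotypes overlapped. The log2 difference was -0.25 ± 0.16 (adjusted p = 0.350). A further Acaca probe set differed by -0.10, with 7.21 and 7.16 in knockout livers and 7.10 and 7.47 in control livers. The difference between the responses of Acacb and Acaca was not tested.

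Me1 encodes cytosolic malic enzyme, which yields NADPH as it turns malate into pyruvate. Its log2 signals were 10.02 and 10.24 in knockout livers, against 9.60 and 9.48 in control livers. Each knockout liver was above each control liver, and the difference was 0.59 ± 0.12 (n = 2 each, adjusted p = 0.0278). A further Me1 probe set gave 9.78 and 10.10 in knockout livers, against 9.57 and 9.36 in control livers. It also showed no overlap, with a smaller difference of 0.48. Averaging both probe sets gave 0.53 and an adjusted p of 0.0501, so the call depended on the choice of the brighter one. It was also lost without any 1 array, with adjusted p from 0.147 to 0.244 and a difference of 0.48 to 0.70.

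Acly encodes ATP citrate lyase. Its log2 signals were 8.30 and 8.54 in knockout livers, against 8.33 and 8.61 in control livers. These ranges nearly coincide, with a difference of -0.05 ± 0.15 (adjusted p = 0.856) and a 95% interval of -0.40 to 0.30. Fasn, the fatty acid synthase gene, had 8.06 and 8.46 in knockout livers, against 8.37 and 9.22 in control livers. The higher knockout liver exceeded the lower control liver. The Fasn difference was -0.54 ± 0.29 (adjusted p = 0.268), and -0.11 without control liver 2, so its size rested on that liver.

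Scd1 encodes the main desaturase of liver, which places the double bond of oleate and palmitoleate. Its log2 signals were 11.23 and 12.13 in knockout livers, against 11.51 and 12.28 in control livers. Livers of one genotype thus differed by 0.90 and 0.77, more than the genotypes did (-0.22 ± 0.35, adjusted p = 0.733). Elovl6 encodes the elongase that turns palmitate into stearate. It had 8.73 and 8.70 in knockout livers, against 8.56 and 9.14 in control livers, with a difference of -0.14 ± 0.19 (adjusted p = 0.694). Both knockout values lay between the control values. Without control liver 2, the differences of Scd1 (0.17) and Elovl6 (0.16) had the opposite sign.

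Srebf1 encodes SREBP-1, the sterol response element binding factor that drives most of these genes. Its log2 signal was 7.32 in each knockout liver, against 7.60 and 7.98 in control livers. Both knockout livers lay below both control livers, with a difference of -0.47 ± 0.15. This did not pass over all genes (adjusted p = 0.0879, unadjusted p = 0.0186). Mlxipl, the ChREBP gene, had 9.55 and 9.70 in knockout livers, against 10.03 and 9.84 in control livers. It also showed no overlap but did not pass (-0.31 ± 0.12, adjusted p = 0.150).

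Thrsp encodes Spot 14, a small nuclear and cytosolic protein that responds to thyroid hormone and carbohydrate and is tied to lipogenesis. Its log2 signals were 6.48 and 6.93 in knockout livers, against 6.70 and 7.70 in control livers. A single control liver stood above the other 3. The difference was -0.50 ± 0.33 (adjusted p = 0.369), and 0.005 without that liver. Both knockout values and the lower control value lay under the background guide of 7.01, so the size is uncertain. In all, 3 members lay lower in the knockout with no overlap and 1 lay higher, while the shares over all genes were 27% and 32.1%.

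**Figure D2:**
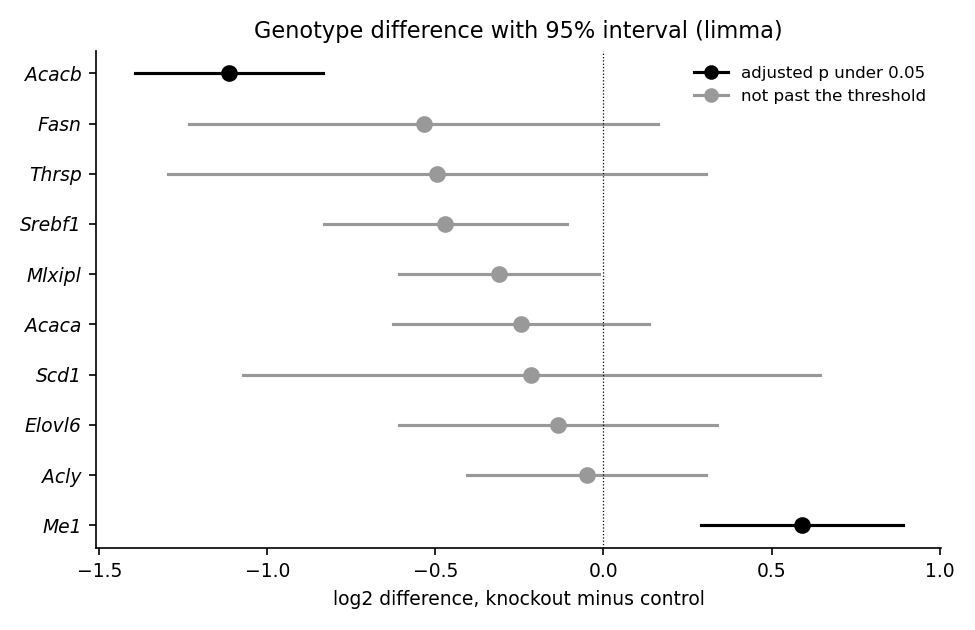
Log2 difference, knockout minus control, of each gene with its 95% interval from limma (n = 2 each). Black marks an adjusted p under 0.05: Acacb lies at -1.12 and Me1 at 0.59, and the intervals of Fasn, Thrsp and Scd1 are the widest.

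The members also differed between livers of the same genotype. Over all genes, the 90th percentile of the absolute log2 difference was 0.31 between both knockout livers and 0.39 between both control livers. Larger differences were seen for 3 of 10 members between knockout livers and for 4 of 10 between control livers. Between control livers these were Thrsp, Fasn, Scd1 and Elovl6. Between knockout livers they were Scd1, Thrsp and Fasn. In each genotype the liver numbered 2 was higher in 7 of 10 members, and in both genotypes in 5 of 10. Over all genes, liver 2 was higher in 48.2% in the knockout, 44.1% in the control and 21.7% in both, although replicates carry no order and the numbers are not known to pair the livers.

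Genes of sterol synthesis, which SREBP-2 drives, also differed between livers of one genotype. All 14 measured were higher in liver 2 than in liver 1 of each genotype. The median of liver 2 minus liver 1 was 0.27 in the knockout and 0.89 in the control, beside 0.23 in the knockout and 0.36 in the control for the lipogenesis genes, and this gap between the lists was not tested. Sqle, the squalene epoxidase gene, had 7.28 and 8.15 in knockout livers, against 6.53 and 9.03 in control livers. By genotype, 1 of the 14 fell and none rose, beside 4.11% and 10.7% of all genes, with a median of -0.31. That gene was Dhcr7, of the last step of the pathway, with 7.79 and 7.82 in knockout livers, against 8.28 and 8.66 in control livers (adjusted p = 0.0339). Idi1 (-1.28, adjusted p = 0.184), Fdft1 (-0.61, adjusted p = 0.197) and Mvk (-0.39, adjusted p = 0.274) did not pass.

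**Figure D3:**
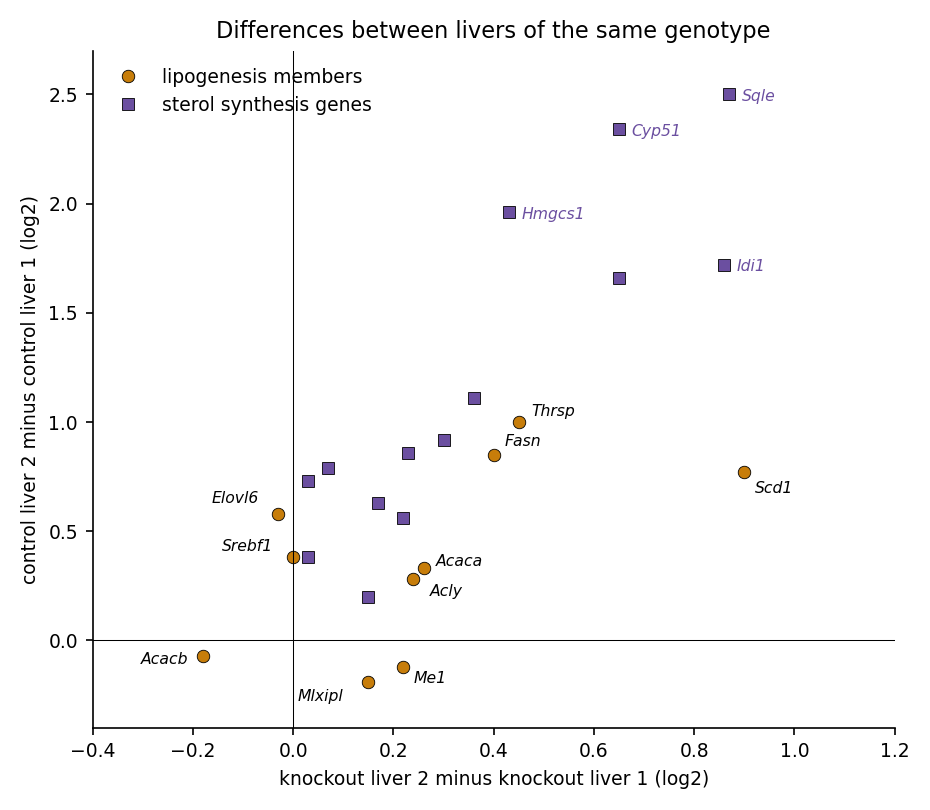
Log2 difference between both knockout livers (horizontal) and between both control livers (vertical), liver 2 minus liver 1, for the 10 lipogenesis genes (circles) and 14 sterol synthesis genes (squares). Every square lies above 0 on both axes, and Thrsp, Fasn and Scd1 lie furthest out among the circles.

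Related genes were read from lists. Their counts stand beside 10.7% of all genes called higher and 4.11% called lower, and no list was tested against these shares. Among genes that supply precursors and NADPH, 3 of 14 rose and 3 fell, with a median log2 difference of -0.08. The risers included both NADPH-producing dehydrogenases of the pentose phosphate pathway. Pgd had 8.72 and 8.94 in knockout livers, against 7.69 and 7.96 in control livers (1.01 ± 0.14, adjusted p = 0.00949). G6pdx had 7.91 and 7.65 in knockout livers, against 6.97 and 6.99 in control livers (0.80 ± 0.13, adjusted p = 0.0123). Both G6pdx control values lay under the background guide of 7.01, so the size is uncertain. Other sources of NADPH and pentose phosphate genes on the list did not pass: Idh1, cytosolic isocitrate dehydrogenase, differed by -0.03 (adjusted p = 0.947), Tkt by 0.30, Pgls by -0.14 and Taldo1 by 0. The third riser was Cs, mitochondrial citrate synthase (0.65, adjusted p = 0.0126).

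Acss2, which makes cytosolic acetyl-CoA from acetate, fell to 7.80 and 7.92 in knockout livers, against 9.47 and 9.05 in control livers (-1.40 ± 0.16, adjusted p = 0.00532). Mlycd, the malonyl-CoA decarboxylase that removes the product of acetyl-CoA carboxylase, fell by 0.49 on the log2 scale (adjusted p = 0.0316). The cytosolic malate dehydrogenase gene Mdh1 fell by 0.50 (adjusted p = 0.0320). The mitochondrial citrate exporter gene Slc25a1, which brings citrate to ATP citrate lyase, differed by -0.21 (adjusted p = 0.289).

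Other desaturation and elongation genes moved in both directions: 3 of 12 measured rose and 2 fell, with a median of -0.04. Elovl3, an elongase of very long chain fatty acids, had 4.66 and 5.32 in knockout livers, against 10.38 and 8.15 in control livers (-4.28 ± 0.67, adjusted p = 0.0124). The knockout values lay under 5.98, the median of the olfactory receptor genes, so the size is uncertain. Tecr, the reductase of the last elongation step, fell by 0.56 (adjusted p = 0.0210). Fads3 of the fatty acid desaturase family (1.35, adjusted p = 0.00789), the elongase gene Elovl1 (0.47, adjusted p = 0.0352) and the desaturase gene Scd2 (0.55, adjusted p = 0.0471) rose. Scd2 had 7.10 and 6.85 in knockout livers, against 6.33 and 6.53 in control livers. All of these but 1 knockout value lay under 7.01, as did 1 Fads3 control value (7.03 and 6.89), so the sizes of both rises are uncertain.

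In the list of sugar entry and ChREBP targets, 1 of 12 rose and 1 fell, with a median of 0.15. Txnip, the thioredoxin-interacting protein gene that responds to glucose, had 10.97 and 10.44 in knockout livers, against 9.13 and 9.54 in control livers (1.37 ± 0.22, adjusted p = 0.0124). Khk, the fructose kinase gene, fell by 0.57 (adjusted p = 0.0261). Gpd1 (0.35, adjusted p = 0.0756) and Gckr (-0.35, adjusted p = 0.113) did not pass, and neither did Pklr, the liver pyruvate kinase gene (-0.19, adjusted p = 0.601).

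Among 14 measured genes of SREBP processing, LXR and cofactors, 1 fell and none rose, with a median of -0.16. Lpin1, a phosphatidate phosphatase that also acts as a transcriptional cofactor, had 8.20 and 8.01 in knockout livers, against 9.49 and 10.52 in control livers (-1.90 ± 0.32, adjusted p = 0.0144). Scap, the SREBP escort gene (-0.33, adjusted p = 0.212), the site 2 protease gene Mbtps2 (0.22, adjusted p = 0.242) and Nr1h3, the LXRalpha gene (-0.30, adjusted p = 0.252), did not pass.

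AMP-activated protein kinase phosphorylates and inhibits acetyl-CoA carboxylase. Of 9 measured genes on its list 1 rose and none fell, with a median of -0.11. The riser was Prkaa1, a catalytic subunit, with 8.47 and 8.67 in knockout livers, against 7.97 and 8.11 in control livers (adjusted p = 0.0377). The other catalytic subunit gene, Prkaa2, differed by -0.32 (adjusted p = 0.129), Prkab2 by 0.36 (adjusted p = 0.0936) and Camkk2 by -0.30 (adjusted p = 0.136).

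None of 12 insulin signalling genes passed the limma test, and their median was 0.0075. An unadjusted limma p under 0.05 was seen for 3 of the 12, beside 3933 of all 12903 genes. Igfbp1, which insulin represses, had 11.16 and 10.03 in knockout livers, against 8.86 and 9.60 in control livers (1.37 ± 0.40, adjusted p = 0.0725). Akt2, the main insulin-responsive kinase of liver, differed by -0.44 (adjusted p = 0.0610), Mtor by -0.31 (adjusted p = 0.156) and Pck1 by -0.17 (adjusted p = 0.419).

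**Figure D4:**
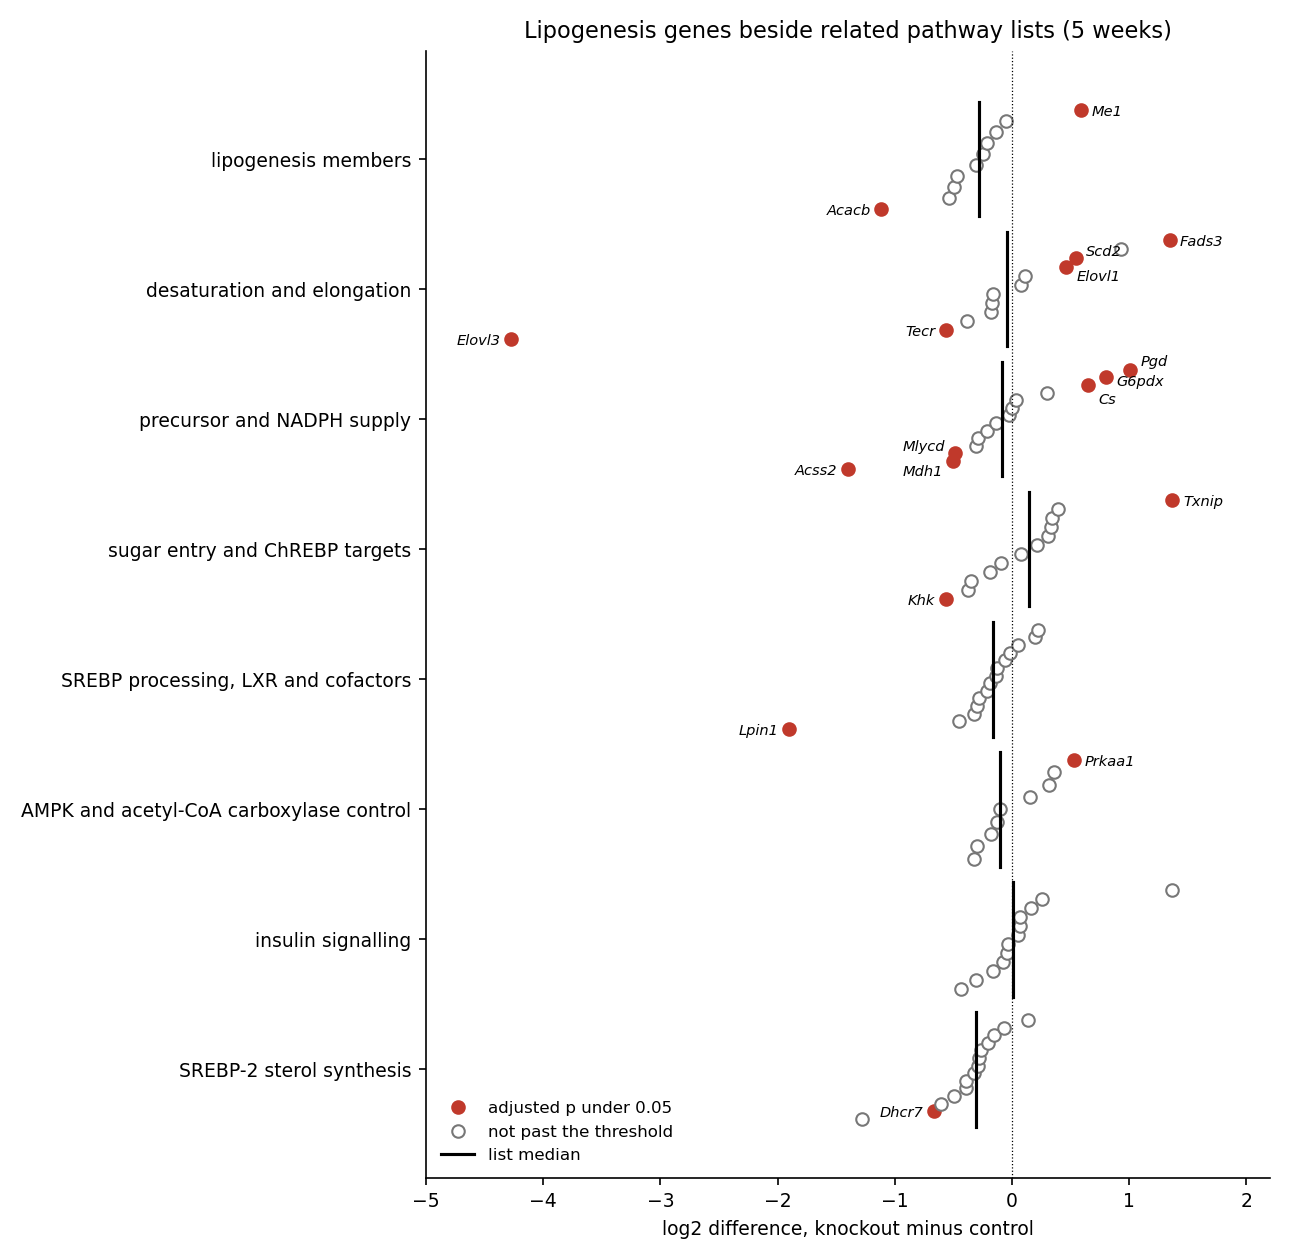
Log2 difference, knockout minus control, of every measured gene in the lipogenesis set and in 7 related lists. Filled points passed an adjusted p under 0.05 and are named, open points did not, and bars are list medians, from -0.31 for sterol synthesis to 0.15 for sugar entry.

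Markers of other cells moved with the genotype. Macrophage markers rose in 11 of 12 genes, stellate cell and fibroblast markers in 7 of 10 and cholangiocyte markers in 6 of 8. The share called higher over all genes was 10.7%. The log2 of the summed macrophage signal was 13.6 and 13.4 in knockout livers, against 12.4 and 12.5 in control livers. For stellate cell markers it was 12.91 and 12.93 in knockout livers, against 12.17 and 12.40 in control livers. For cholangiocyte markers it was 11.68 and 11.85 in knockout livers, against 9.54 and 9.77 in control livers. Spp1 made up most of the knockout sum, with 11.11 and 11.28 in knockout livers, against 7.81 and 8.11 in control livers. The duct keratins Krt19 (-0.32, adjusted p = 0.615) and Krt7 (0.10, adjusted p = 0.679) did not pass. All their values but 1 Krt19 control value (7.23) lay under the background guide of 7.01, so a change could have been missed. Among the 6 cholangiocyte markers that rose, Epcam and Prom1 lay under 7.01 on every array. Bicc1 and Cldn7 lay under it in both control livers, and Sox9 in control liver 2 (6.97). The sizes of these rises are therefore uncertain. None of 11 hepatocyte markers passed, with 1 at an unadjusted limma p under 0.05, beside 3933 of all 12903 genes. The log2 summed signal of hepatocyte markers was 16.56 and 16.52 in knockout livers, against 16.63 and 16.59 in control livers. Adipose tissue also makes lipogenic enzymes. None of 5 adipose markers passed, with 0 at an unadjusted p under 0.05 in limma, and their summed signal was 12.96 and 13.10 in knockout livers, against 12.72 and 12.91 in control livers. That sum was nearly all Car3, with 12.88 and 13.03 in knockout livers, against 12.62 and 12.82 in control livers. Plin1, Retn and Cfd, 3 of the 5, had a lower mean in the knockout. All 3 lay under the background guide of 7.01 on every array, so these markers say little about adipose content. Adipoq and Lep had no named row. The part of other cells in the lipogenesis values was not tested.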

How the data were processed

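RNA of mouse livers was measured on Affymetrix arrays. Per the submitters' processing notes, the authors made the deposited log2 values with Affymetrix Expression Console and RMA; their versions and the genome build were not found in the labels. The 5-week value table holds 35556 probe sets on 4 arrays, rounded to 2 decimals, which gave some genes no spread within groups. Its scale and direction were checked against the authors' deposited log2 means, which it matched within 0.005; it is not centred per gene, and array medians were 5.92 to 5.96. The authors' deposited table (14996 probe sets, each with a higher group mean of at least 4.94) also holds their fold, a ratio of knockout over control, and a p-value of an unstated test. Its 4 columns of single arrays match no label and were not used. Gene names came from that table, updated through RefSeq by accession (13100 probe sets), symbol (1014) or synonym (488), with 386 kept and 8 with several genes left out. The brightest probe set of each gene was kept, for 12903 genes.

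Differences (knockout minus control) were fitted with limma 3.58.1 in R 4.3.3 (lmFit, eBayes), adjusted by Benjamini-Hochberg over all genes and called at 0.05. The fit was tested on simulated data with 200 changed genes and independent noise for each gene. That run does not cover variation that genes of a liver share, so it is no measure of how reliable the calls are. Samples were grouped by title, 2 per genotype, and so few arrays limit the precision. The alternatives left out each array or changed the normalization, the filter, the probe set rule, the variance model, the block or the source of the p-values. The 8-week arrays were planned too, but no gene names for their probe sets were in the sources used here, so the 8-week tests and the search for genes that vary like Fasn were not run. All 10 members are named, and up to 4 genes of each list with the smallest p, plus exceptions; Sqle, Slc25a1 and Pklr were chosen after their values were seen. Members and lists were chosen with earlier results of these data known.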

Additional observations from a re-analysis of the deposited data

How the results depend on the processing

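Over all 4 arrays, 1915 genes and 2 members passed. Leaving out any 1 array left 0 genes and 0 members past the adjusted threshold of limma, a lone sample being assumed to vary like the other genotype, while 2265 to 3494 genes stood at an unadjusted p under 0.05. With all 35556 probe sets fitted, an alternative chosen after seeing the data, 0 passed and 5640 stood at an unadjusted p under 0.05. There Acacb had an adjusted p of 0.0680 and Me1 of 0.159, in a fit with more dim features and more tests. With only genes above a mean of 7.43, 1074 genes passed, and 1 member, as Acacb and Thrsp were not tested. With the replicate block, 829 genes and 1 member passed, Me1 having an adjusted p of 0.0833. The labels give no sign that the numbers pair the livers, and deviations of same-numbered livers correlated at 0.05 across genes, although all 14 sterol synthesis genes were higher in liver 2 of each genotype. With all probe sets of a gene averaged, 1 member passed. The cause of these losses was otherwise not tested. Quantile normalization, median centring, another variance model and the authors' p-values kept Acacb and Me1 as the members past the threshold, with 1721 to 2169 genes called.

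Leave-one-out ranges of the log2 difference were -0.19 to 0.09 for Acly, -0.67 to 0.24 for Scd1, -0.43 to 0.16 for Elovl6 and -0.995 to 0.005 for Thrsp, so these changed sign. Without knockout liver 1, Acly was 0.07 and Scd1 0.24; without control liver 2, Acly was 0.09, Scd1 0.17, Elovl6 0.16 and Thrsp 0.005. Fasn ranged from -0.96 to -0.11, Srebf1 from -0.66 to -0.28, Mlxipl from -0.41 to -0.22, Acaca from -0.41 to -0.08 and Me1 from 0.48 to 0.70. Of 120 values of single members under alternatives, 101 kept direction and side of the threshold, 13 lost the call and 6 changed sign. All 13 losses were of Acacb or Me1, as the other 8 members had no call to lose. Some alternatives, such as another variance model, leave every difference as it was, so the 101 are no measure of robustness.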
